A study of Mus musculus with 10 samples.

Results

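The class 3 semaphorins, Sema3a to Sema3g, and 3 of their receptors, the neuropilins Nrp1 and Nrp2 and the plexin Plxnd1, were followed in dorsal root ganglia (DRGs) of *Lkb1* KO and WT mouse embryos. The 10 genes were chosen by name, with earlier results of these data known. Each was read from a probe set that the platform annotation gives to that gene alone, taking the brightest over the 10 arrays where there were several. All 10 had 1 such probe set, and they are 10 of the 19938 genes measured. DRGs hold the cell bodies of sensory neurons and their glia. In *Lkb1* KO embryos a floxed *Lkb1* gene (symbol Stk11), which encodes the kinase Lkb1, was removed by Cre from the Wnt1-Cre transgene, which is active in the neural crest, the source of DRG neurons and glia, as well as in the midbrain and the dorsal neural tube. Blood vessels and much of the connective tissue that come with a ganglion do not derive from that lineage, so the gene was not targeted in every cell of a sample. By the methods, the WT embryos were littermates and the mice had a mixed genetic background, and the sources used here do not give whether they carried the floxed allele or Cre. There were 5 *Lkb1* KO and 5 WT samples at E13.5, 1 array each, every sample pooling the DRGs of 2 embryos, so n counts pools.

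Class 3 semaphorins are secreted guidance proteins that mostly repel growing axons. They bind a neuropilin, which has a short cytoplasmic tail, and signal through a plexin that forms a complex with it. Sema3e is the exception, since it can bind Plxnd1 directly. Sema3a, acting through Nrp1 and class A plexins, is known for keeping embryonic sensory axons out of inappropriate territory, and the same ligands and receptors also guide blood vessels.

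Values are the deposited log2 expression levels, and they do not allow the level of 1 gene to be set against that of another. The *Lkb1* KO samples were tested against the WT samples with limma, and a gene was called higher or lower where the p-value, adjusted by Benjamini-Hochberg over all 19938 genes, was under 0.05. At this threshold 771 genes were called (3.87%), 496 of them higher in *Lkb1* KO (2.49%) and 275 lower (1.38%). The median log2 fold change of all genes was -0.0017. Stk11 itself was at 7.68 to 7.94 in *Lkb1* KO and 8.51 to 9.08 in WT, so every sample matched its label. Several samples stood apart in ways the groups do not explain. *Lkb1* KO replicate 2 was at 7.01 for the mean of 5 measured sympathetic neuron markers, against at most 6.02 in the other samples, and *Lkb1* KO replicate 3 was at 6.35 for 8 skeletal muscle markers, against at most 5.52. The mean of the Y-linked genes Eif2s3y and Uty was 4.91 and 5.08 in *Lkb1* KO replicates 2 and 5 and at least 9.22 in the other samples, so the pools also differed in the sex of their embryos.

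Of the 10 genes, 4 were higher in *Lkb1* KO, none was lower and 6 did not pass the test. The 4 were the ligands Sema3g, Sema3b and Sema3c and the receptor Nrp2. That is 40.0% of the 10, beside 2.49% of all genes called higher. Since the 10 were chosen with earlier results of these data known, setting these shares side by side is a description and no test. The same 4 passed at an adjusted p under 0.01, the false discovery rate that the study's methods name, beside 1.16% of all genes. In each of the 4 every *Lkb1* KO sample lay above every WT sample, an arrangement that 617 genes of the array showed (3.09%). The median log2 fold change of the 10 was -0.0284, since the 6 others all had small negative values. All 4 stayed called without *Lkb1* KO replicates 2 and 5, without any 1 other sample and with the Y-linked genes as a covariate. With 1 sample left out their log2 fold changes stayed within 1.13 to 1.21 for Sema3g, 0.36 to 0.45 for Sema3b, 0.28 to 0.31 for Sema3c and 0.24 to 0.28 for Nrp2. In whole ganglia, a change in the number of cells of a type and a change in RNA per cell cannot be told apart.

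**Figure D1:**
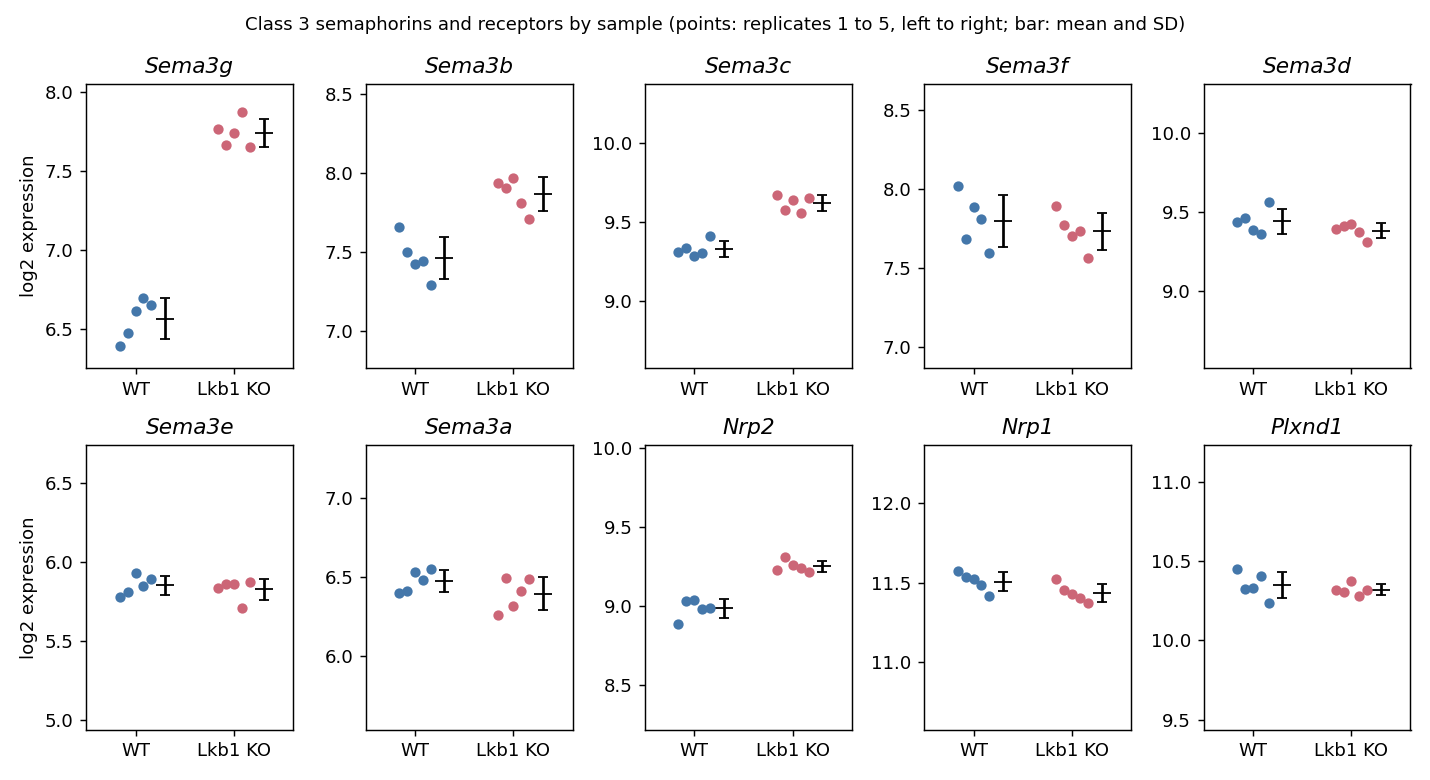
Deposited log2 expression of the 10 genes (vertical axis, 1 panel a gene, every panel spanning the same range) in the 5 WT and 5 *Lkb1* KO samples, with points for replicates 1 to 5 from left to right and a bar for the mean and SD of each group. Sema3g, Sema3b, Sema3c and Nrp2 have all *Lkb1* KO points above all WT points, and in the other 6 panels the groups overlap.

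The sequence upstream of the start is shown for Sema3g, Sema3c and Nrp2 because these genes were called higher, and Sema3b, the other one called, had no entry in the promoter table used (RefSeq, GRCm38.p6). Of the 10 genes, 8 had an entry. Each run is the 250 bases before the annotated start, 5′ to 3′ on the gene's strand, and capitals mark matches on either strand to the motifs spelled out after the sequences, overlapping matches merged. The windows lie at chr14:31217623-31217872 (Sema3g), chr5:17574566-17574815 (Sema3c) and chr1:62703067-62703316 (Nrp2), all on the plus strand.
Sema3g: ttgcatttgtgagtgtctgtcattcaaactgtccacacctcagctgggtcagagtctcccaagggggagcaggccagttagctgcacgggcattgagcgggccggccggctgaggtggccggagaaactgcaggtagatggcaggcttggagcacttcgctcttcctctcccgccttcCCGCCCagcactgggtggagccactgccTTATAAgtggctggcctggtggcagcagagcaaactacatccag
Sema3c: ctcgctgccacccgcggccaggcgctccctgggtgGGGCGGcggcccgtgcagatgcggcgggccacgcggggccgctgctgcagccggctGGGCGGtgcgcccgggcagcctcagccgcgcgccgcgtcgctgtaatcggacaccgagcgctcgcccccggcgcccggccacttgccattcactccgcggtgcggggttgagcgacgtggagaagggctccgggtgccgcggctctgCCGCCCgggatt
Nrp2: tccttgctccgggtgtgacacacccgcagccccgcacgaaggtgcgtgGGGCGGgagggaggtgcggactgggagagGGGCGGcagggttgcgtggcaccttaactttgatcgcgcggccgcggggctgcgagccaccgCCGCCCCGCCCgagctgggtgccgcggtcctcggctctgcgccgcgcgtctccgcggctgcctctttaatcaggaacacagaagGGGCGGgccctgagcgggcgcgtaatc

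GGGCGG, the core of a GC box, was found in 6 of the 8 windows and in 32.7% of 32851 promoters of the same length. The Nrp2 window held 5 matches, of which those on the opposite strand read CCGCCC, the Sema3c window 3 and the Sema3g window 1. TATAA, the core of a TATA box, was found in the Sema3g window alone of the 8, as a TTATAA that matches on both strands, and in 22.8% of all promoters. The windows of Sema3c and Nrp2 were GC-rich, at 78.4% and 72.4% with 39 and 32 CpG dinucleotides, while that of Sema3g had 60.4% and 8, beside medians of 52.4% and 6 over all promoters. TGACG, a half-site of the cAMP response element, was in the Sema3d window alone of the 8 (17.8% of all promoters), and the AP-1 motif TGANTCA in none (6.75%). A match is a description of the letters, and no binding was measured.

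Sema3g, a ligand that binds Nrp2 and is best known from blood vessels, had the largest change of the 10. It was at 6.39, 6.48, 6.62, 6.70 and 6.65 in WT replicates 1 to 5 and at 7.77, 7.67, 7.74, 7.87 and 7.65 in *Lkb1* KO replicates 1 to 5. The lowest *Lkb1* KO sample was nearly 1 log2 unit above the highest WT sample. The means were 7.74 ± 0.09 (SD, n = 5) and 6.57 ± 0.13 (SD, n = 5), a difference of 1.17 on the log2 scale (SE 0.06, 95% interval 1.04 to 1.31, limma adjusted p = 5.48e-07), or 2.25-fold. The WT values of 6.39 and 6.48 were under the highest array median, 6.57, and whether they stood above background was not tested. Among the 771 called genes Sema3g ranked 8 by the size of the change and 6 by p. The difference was between 1.00 and 1.38 in each of the 5 same-numbered pairs. With replicate number as a block the limma adjusted p was 4.47e-06.

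The other called ligands changed less. Sema3b, which acts through both neuropilins, was at 7.66, 7.50, 7.42, 7.44 and 7.29 in WT and at 7.94, 7.90, 7.96, 7.81 and 7.70 in *Lkb1* KO. The groups came closest between WT replicate 1 and *Lkb1* KO replicate 5 and did not overlap. The log2 fold change was 0.40 (SE 0.07, 95% interval 0.26 to 0.55, limma adjusted p = 0.00500). Its adjusted p over 21 alternatives ran from 6.99e-04, with the replicate block in limma, to 0.0441, in a one-way analysis of variance.

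Sema3c, a ligand of both neuropilins and of Plxnd1 complexes that is needed in the cardiac outflow tract, was at 9.31, 9.34, 9.28, 9.30 and 9.41 in WT and at 9.67, 9.58, 9.64, 9.56 and 9.65 in *Lkb1* KO. No sample of 1 group lay within the range of the other. The log2 fold change was 0.29 (SE 0.04, 95% interval 0.21 to 0.37, limma adjusted p = 9.51e-04), which is the median size of the called genes (0.29). Its limma adjusted p was 0.00207 with replicate number as a block.

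The other 4 ligands did not pass the test, and in each the groups overlapped. Sema3a, the ligand that repels sensory axons through Nrp1, was at 6.26 to 6.49 in *Lkb1* KO and 6.40 to 6.55 in WT, a log2 fold change of -0.08 (95% interval -0.20 to 0.03, limma adjusted p = 0.539). Sema3d, which also uses Nrp1, had -0.06 (95% interval -0.16 to 0.04), and Sema3f, the main repellent ligand of Nrp2, had -0.07 (95% interval -0.24 to 0.10). Sema3e, the ligand that binds Plxnd1 directly, had -0.03 (95% interval -0.12 to 0.07). The intervals of Sema3a, Sema3d and Sema3e reach at most 0.07 upwards, and that of Sema3f, the widest, reaches 0.10. The size of the Sema3c change, 0.29, thus lay outside the interval of each.

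Among the receptors, Nrp2 was at 8.89, 9.03, 9.04, 8.98 and 8.99 in WT and at 9.23, 9.31, 9.26, 9.24 and 9.22 in *Lkb1* KO. The *Lkb1* KO samples lay close together and all above the WT samples. The log2 fold change was 0.27 (SE 0.04, 95% interval 0.18 to 0.35, limma adjusted p = 0.00183, or 0.00266 with the replicate block). Nrp2 is the neuropilin that binds Sema3f and Sema3g and, in lymphatic endothelium, VEGF-C.

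Nrp1, the Sema3a receptor, was at 11.57, 11.53, 11.52, 11.48 and 11.41 in WT and at 11.52, 11.45, 11.43, 11.40 and 11.37 in *Lkb1* KO. The groups overlapped, although the *Lkb1* KO sample was the lower in 5 of 5 same-numbered pairs, by 0.04 to 0.09. The log2 fold change was -0.07 (95% interval -0.16 to 0.02, limma adjusted p = 0.488). It did not pass with replicate number as a block either (limma adjusted p = 0.303). Plxnd1, the plexin shared by Sema3c and Sema3e signalling, had -0.03 (95% interval -0.13 to 0.06, limma adjusted p = 0.815).

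For single genes an exact two-sided permutation test over all assignments of the samples gave p = 0.00794 for each of the 4 called genes, the smallest it allows. Exchanging labels only within replicate numbers gave an exact p of 0.0625 for each, again the smallest it allows, so that test cannot reach 0.05. Nrp1 had exact p-values of 0.0952 and 0.0625, and the other 5 genes were at 0.19 or above in the first test.

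For 3 pairs of related members the log2 ratio within each array was taken. Each pair sets a called gene against one that was not called and was chosen after the values were seen, so the ratios are a description with no test. Between WT and *Lkb1* KO, the log2 ratio of Nrp2 to Nrp1 rose by 0.34, that of Sema3c to Sema3d by 0.35 and that of Sema3b to Sema3f by 0.47. Sema3b and Sema3f lie near each other on chromosome 9. The 3 protein-coding genes between them did not pass the test, with log2 fold changes of 0.03 for the G protein subunit gene Gnai2, 0.28 for the glutamine transporter gene Slc38a3 (limma adjusted p = 0.161) and -0.07 for Gnat1. Sema3c, Sema3d, Sema3a and Sema3e are all on chromosome 5, and Sema3c was the only one of them called.

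The rest of the pathway was read from 6 lists holding 66 measured genes. Of these 4 were higher, 2 were lower and 60 did not pass the test, beside 2.49% and 1.38% of all genes. The shares were 6.06% higher and 3.03% lower, and the median log2 fold change was -0.045. An unadjusted limma p under 0.05 was found for 23 of the 66, 14 of them lower and 9 higher, beside 15.3% of all genes. With replicate number as a block, 6 were higher and 2 lower. Single samples moved these counts. There were 2 higher with *Lkb1* KO replicate 2 or 3, or with WT replicate 1, 3 or 4, left out, none was lower with any 1 of WT replicates 1 and 3 and *Lkb1* KO replicate 2 left out, and 5 were higher and 5 lower without WT replicate 5.

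None of 8 further plexin genes was called without covariates. Of the 8, 6 had negative and 2 positive log2 fold changes, where 10150 of all 19938 genes had negative ones. The class A plexins, the signalling partners of neuropilins, had negative log2 fold changes in all 4 cases, with Plxna3 at -0.16 (adjusted p = 0.103), Plxna2 at -0.12 (0.332) and Plxna4 at -0.10 (0.343 from limma). With the Y-linked covariate Plxna3 was called lower, at -0.22 (limma adjusted p = 0.0491). By limma 1 of the 8 plexins had an unadjusted p under 0.05, beside 15.3% of all genes. None of the 6 genes of the L1 family and the contactins, adhesion proteins that include neuropilin co-receptors, was called, and 3 of them had an unadjusted p under 0.05 (15.3% of all genes did). Those 3 were Cntn2 at -0.18, Nfasc at -0.18 and L1cam, the co-receptor of Nrp1 in the Sema3a response, at -0.17 (adjusted p = 0.178, 0.134 and 0.108 from limma). Without WT replicate 5, Nfasc and L1cam were called lower (0.0244 and 0.0295).

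Of 13 semaphorins of classes 4 to 7, which are membrane-bound, 2 were higher and none lower, beside 2.49% and 1.38% of all genes. The 2 were the class 5 genes, transmembrane proteins with thrombospondin repeats. Sema5b was at 6.13 to 6.32 in WT and 6.39 to 6.62 in *Lkb1* KO, a log2 fold change of 0.28 (SE 0.05, limma adjusted p = 0.00968). Sema5a was at 8.18 to 8.50 in WT and 8.55 to 8.76 in *Lkb1* KO, a log2 fold change of 0.29 (SE 0.07, limma adjusted p = 0.0304). In neither gene did the groups overlap, and Sema5b passed under all 21 alternatives. The call of Sema5a was lost in 9 of 21 alternatives, among them leaving out WT replicate 1, 3 or 4 or *Lkb1* KO replicate 2, 3 or 5 (adjusted p from 0.0513 to 0.0836 from limma) and the Y-linked covariate (0.172). Sema6d, a transmembrane semaphorin, was at 11.16 to 11.29 in *Lkb1* KO and 11.30 to 11.43 in WT. These ranges do not overlap either, an arrangement that 2.24% of all genes showed, but Sema6d did not pass the test (log2 fold change -0.11, limma adjusted p = 0.203).

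Among 25 measured genes of plexin signalling in the cytoplasm, 1 was higher and 1 lower, beside 2.49% and 1.38% of all genes. An unadjusted limma p under 0.05 was found for 9 of the 25, 7 of them lower and 2 higher, beside 15.3% of all genes. Farp2, a guanine nucleotide exchange factor that binds class A plexins and acts early in the Sema3a response, was at 7.43, 7.48, 7.39, 7.37 and 7.34 in WT and at 7.75, 7.81, 7.78, 7.74 and 7.77 in *Lkb1* KO. The *Lkb1* KO samples clustered tightly above the WT samples. The log2 fold change was 0.37 (SE 0.04, limma adjusted p = 1.11e-04), and it passed under all 21 alternatives. Limk2, a kinase that phosphorylates cofilin, had -0.15 (SE 0.04, limma adjusted p = 0.0440). That call was lost in 12 of 21 alternatives, among them the block on replicate number (limma adjusted p = 0.0504) and leaving out any 1 of WT replicates 1 to 4 and *Lkb1* KO replicates 2 to 5 (0.0874 to 0.116). Cdk5r1, the activator of the kinase Cdk5, had -0.18 and a limma adjusted p of 0.0865, or 0.0471 with that block. The 5 collapsin response mediator genes, Crmp1 and Dpysl2 to Dpysl5, which relay semaphorin signals to microtubules, all had negative values with a median of -0.14. None was called, and 3 of the 5 had an unadjusted limma p under 0.05, beside 15.3% of all genes. Of all 19938 genes, 10150 had negative values.

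Of 8 VEGF ligands and receptors, a family that shares the neuropilins with the semaphorins, 1 was higher and none lower. These counts stand beside 2.49% and 1.38% of all genes. Vegfd, a ligand of the receptor Flt4, had 0.16 (SE 0.04, limma adjusted p = 0.0304) and lost its call in 11 of 21 alternatives, among them leaving out any 1 of WT replicates 1 to 4 and *Lkb1* KO replicates 2 to 4 (0.0609 to 0.0852). Kdr, the main VEGF receptor of endothelium, had 0.17 (limma adjusted p = 0.183, 0.0490 with the block on replicate number), and Pgf had -0.15 (0.120). Of 6 proteases known to cut semaphorins, neuropilins or their partners, none was higher and 1 was lower, beside 1.38% of all genes. This was Adam10, at -0.17 (SE 0.04, limma adjusted p = 0.0214). It lost that call in 5 of 21 alternatives, among them leaving out WT replicate 1 or 3 or *Lkb1* KO replicate 2 (0.0522 to 0.0541) and the Y-linked covariate (0.101). Adam17 had 0.16 and a limma adjusted p of 0.0887, or 0.0381 with the block on replicate number, and Pcsk7 had -0.10 (0.516).

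**Figure D2:**
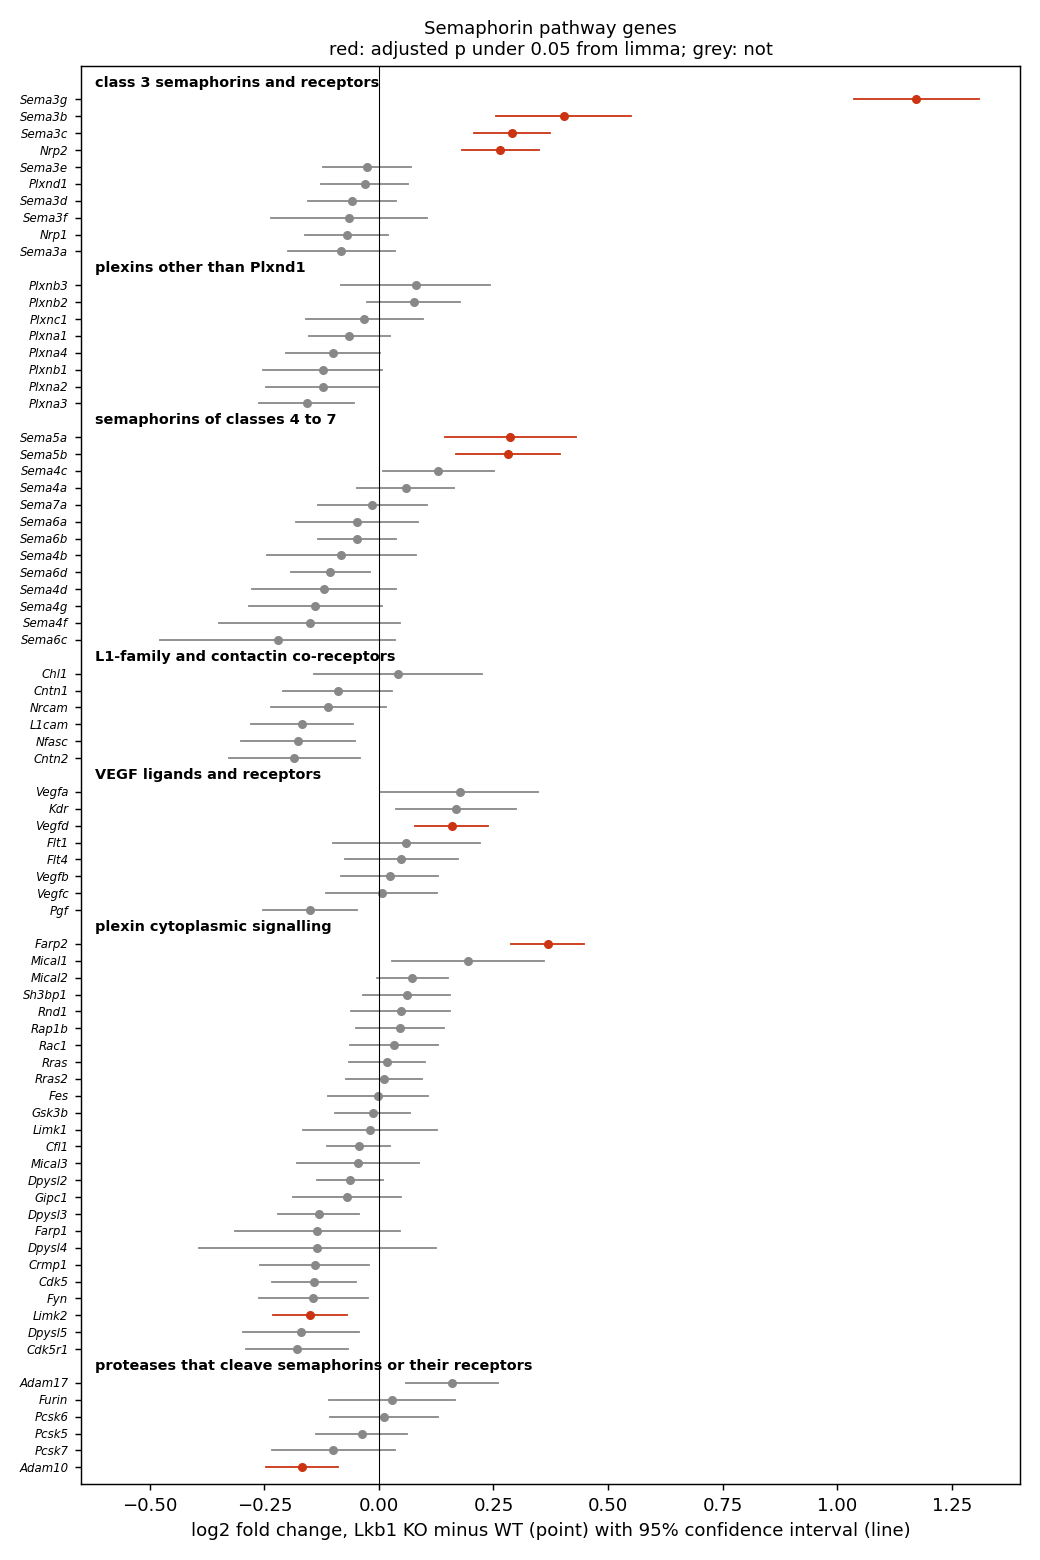
Log2 fold change between *Lkb1* KO and WT (points) with 95% confidence intervals from limma (lines) on the horizontal axis for the 10 genes and the 66 other pathway genes, grouped by list, red where the adjusted p was under 0.05 and grey where not. Sema3g, at 1.17, stands clear of all others drawn, and the next largest values are Sema3b at 0.40 and Farp2 at 0.37.

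Marker genes of the cell types that a ganglion sample can hold moved with the groups in several lists. The share of all genes called, beside which each marker list is read, was 2.49% higher and 1.38% lower. Of all 19938 genes, 10150 had negative and 9774 positive values. In WT the means of the 12 measured sensory neuron markers ran from 7.76 (Tlx3) to 12.04 (Prph) and those of 10 spinal cord markers from 4.32 (Mnx1) to 5.52 (Lbx1), each on the scale of its own probe set. Of 12 sensory neuron markers 2 were lower, none was higher and all 12 had negative values, and the mean of the list was 9.50 to 9.64 in *Lkb1* KO against 9.67 to 9.85 in WT. Of 10 fibroblast and mesenchyme markers 8 were higher and none lower, with Postn at 0.36, Col1a1 at 0.35 and Lum at 0.50, and the mean was 8.90 to 8.97 against 8.58 to 8.69. In both lists the groups did not overlap, and their part in the rise of Sema3g, Sema3b, Sema3c and Nrp2 was not tested.

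Of 12 endothelial markers 1 was higher, the tight-junction gene Cldn5 at 0.29 (limma adjusted p = 0.00532), and none was lower, with list means of 7.87 to 8.11 in *Lkb1* KO and 7.83 to 7.92 in WT. These ranges overlap, but all 12 markers had positive values, from 0.03 to 0.29, and the list mean was higher in *Lkb1* KO in 5 of 5 same-numbered pairs. None of 9 pericyte and smooth muscle markers was called (2 had an unadjusted limma p under 0.05, beside 15.3% of all genes), and the means were 6.93 to 7.14 against 6.84 to 6.95, higher in *Lkb1* KO in 5 of 5 pairs. Of 5 measured Schwann and satellite glia markers 1 was lower, Cdh19 at -0.50, and the list means were 9.66 to 9.79 against 9.76 to 9.86, lower in 5 of 5 pairs. The median of that list was 0.03, since Sox10, Erbb3 and Foxd3 had values of 0.07, 0.07 and 0.03. Of 6 meningeal markers 1 was higher and 1 lower. Their list means were 8.33 to 8.59 in *Lkb1* KO and 8.33 to 8.50 in WT, higher in *Lkb1* KO in 4 of 5 pairs. Of 10 spinal cord markers 2 were higher and none lower. Their list means were 4.89 to 4.97 in *Lkb1* KO and 4.83 to 4.93 in WT, higher in *Lkb1* KO in 5 of 5 pairs. None of the skeletal muscle, sympathetic or macrophage markers was called by limma, and none had an unadjusted p under 0.05. The part of any of these lists in the semaphorin results was not tested.

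**Figure D3:**
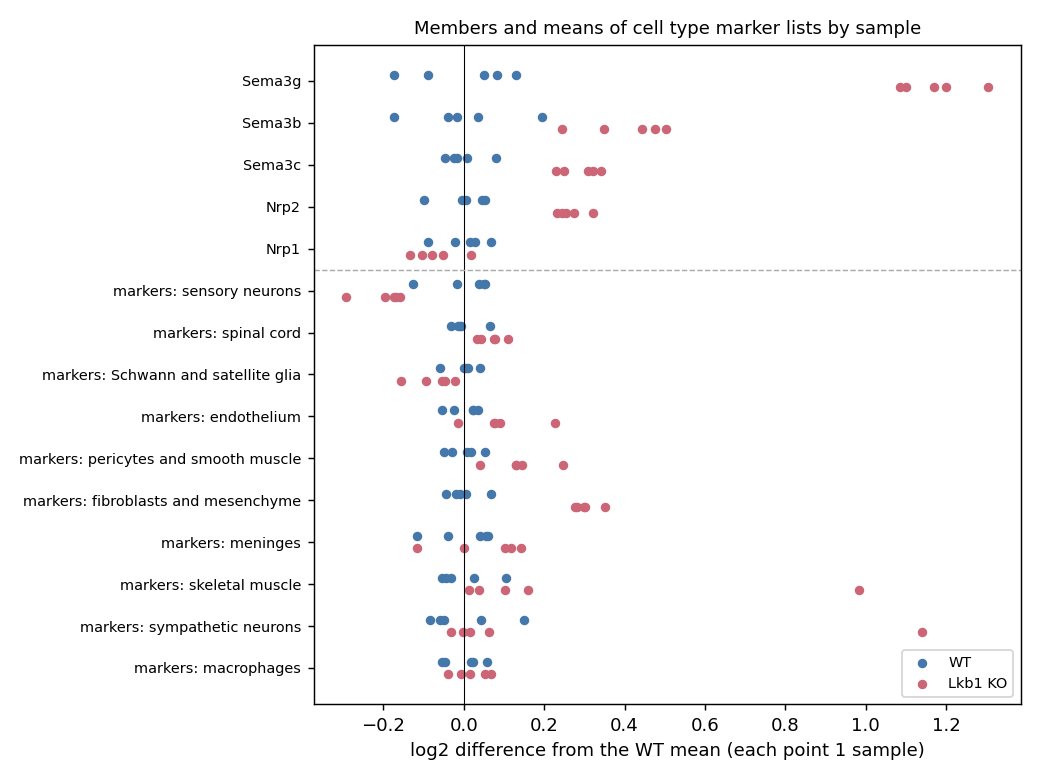
Difference of each sample from the WT mean on the log2 scale (horizontal axis, 1 point a sample) for 5 of the genes above the dashed line and for the mean of each marker list under it, blue for WT and red for *Lkb1* KO. On average Sema3g lies 1.17 higher, the fibroblast list lies 0.30 higher and the sensory neuron list 0.20 lower, and single *Lkb1* KO samples stand out for muscle and for sympathetic markers.

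The genes whose values ran most like those of each called gene over the 10 samples were found by Pearson's r. It is given as a description, since all share the arrays and all but Acsm3 were also called higher. For Sema3g they were Plekhb1 (r = 0.99), the receptor-restraining membrane protein gene Lrig1 (0.98), the matrix genes Postn (0.98) and Frem2 (0.98), and I730030J21Rik (0.98). For Sema3c they began with the retinol dehydrogenase gene Rdh10 (0.99), followed by Acsm3, Cp, Oaf and Grik3 (0.96 to 0.98). Acsm3 itself was not called (log2 fold change 0.06, limma adjusted p = 0.395). For Nrp2 they were the secretory coat gene Sec24d (0.99), the ATP-gated channel gene P2rx7 (0.98), Gpr137b-ps, Fzd3 and Plekhb1 (0.97 each), and for Sema3b they were Ddah1 (0.98), Plscr2 (0.97), Gask1b, Mgp and Cdk6 (0.96 to 0.97). Plekhb1 was thus among the closest for both Sema3g and Nrp2.

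After the group means were removed, the closest genes were others. They were led by Hspb7 for Sema3g (r = 0.96), Cgnl1 for Sema3c (0.95), Snord85 for Nrp2 (0.93) and Slc25a38 for Sema3b (0.98). Of the 5 closest of each gene by this measure, P2rx7 for Nrp2 (0.92) was the only one that was also among the 5 closest by the values themselves.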

How the data were processed

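The authors deposited 1 table of log2 expression values for 35556 probe sets on 10 one-colour Affymetrix Mouse Gene 1.0 ST arrays, hybridised with biotin-labelled cDNA from 250 ng of total RNA. The submitters' processing notes name RMA, which subtracts background, quantile-normalizes and summarizes probe sets, and Partek 6.6, and the methods name MATLAB. Annotation gave 1 gene to 21789 probe sets, several to 1621 and none listed for 12146. Names were updated through RefSeq, which matched 21698, and the brightest probe set per gene left 19938 genes. Array medians differed by at most 0.0689, no pair of arrays was alike (SD of log2 differences within a group 0.120 to 0.198), and the number of arrays limits the precision.

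Groups came from the sample labels, which call the samples biological replicates. The groups were compared in R 4.3.3 using limma 3.58.1 (lmFit, eBayes, two-sided, all 10 samples, no covariate, no filter), with Benjamini-Hochberg adjustment over all genes. On simulated data for this comparison over 19938 genes, 97 of 100 genes changed by 0.5 and 99 of 100 changed by 1 (log2) were recovered and 13 unchanged genes were called. The simulated noise was independent for each gene and array, so deviations that the real samples share are not in these counts. Other steps used Python 3.11.15, pandas 2.3.3 and scipy 1.17.1.

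The 10 genes and all lists were chosen with earlier results of these data known. Named were the 10 genes, Stk11, every called gene of a pathway list and, where fewer than 3 were called, those with the smallest unadjusted p up to 3, a few markers per cell type, and the 5 genes most like each called member by Pearson's r. The genes between Sema3b and Sema3f, the collapsin response mediator genes and some of the markers were added after their values were seen. Some genes of the lists are not reported here.

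Same-numbered WT and *Lkb1* KO samples deviated together from their group means, with correlations between 0.21 and 0.48 across genes. Since all were over 0.1, differences within pairs and a block on replicate number were also given. The main limma test took no block, so its calls and p-values are unpaired. Samples of different number had correlations from -0.48 to 0.31, and the highest of these was above 3 of the same-numbered ones. This comes from the values, and the labels do not say what a number marks. Alternatives were aligned array medians, cyclic loess, analysis of variance gene by gene, a robust prior with an intensity trend, weights for arrays, leaving out the dimmest 30% of genes, averaging the probe sets of a gene, testing every probe set, a block on replicate number, the mean of Eif2s3y and Uty as a covariate (Ddx3y, planned as well, was not analysed here), each sample left out, a threshold of 0.01 and, chosen after seeing the data, leaving out *Lkb1* KO replicates 2 and 5. Promoters came from RefSeq (GRCm38.p6), and gene order along chromosomes from the RefSeq gene table of that assembly. The deposited values name no build.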

Additional observations from a re-analysis of the deposited data

Results flagged for a closer look

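In 29 named genes, 58 groups of 5 samples were examined for a sample far from the rest by Dixon's test, which picks about 1 in 20 groups by chance, and 3 were found. Sema3e in *Lkb1* KO replicate 4 was at 5.71, with the other *Lkb1* KO samples at 5.84 to 5.87. Sema5b in WT replicate 1 was at 6.32, with the other WT samples at 6.13 to 6.17, and this sample lay on the side of the *Lkb1* KO samples. Sema6d in WT replicate 1 was at 11.43, with the others at 11.30 to 11.34.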

How the results depend on the processing

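The counts of 4 genes higher and none lower among the 10 were the same in all 22 alternatives. Averaging the probe sets of a gene and testing every probe set could not change the log2 fold changes of the 10. The same holds for Sema5b and Farp2, since each of these genes has 1 probe set. The number of all genes called, 771, was 387 in the one-way analysis of variance, 480 with the Y-linked genes as a covariate, 459 without *Lkb1* KO replicates 2 and 5, 313 at a threshold of 0.01, and 485 to 834 when 1 sample was left out (504, 490 and 485 without WT replicate 2, 3 and 4). With the replicate block it was 1280, and the block changed no call among the 10 genes. Of the other pathway genes, 4 higher and 2 lower, 2 were higher with the Y-linked covariate, 2 without *Lkb1* KO replicates 2 and 5, and 2 higher and 0 lower at 0.01. Leaving out 1 sample gave 2 to 5 higher and 0 to 5 lower. The value of Sema3e ran from -0.0441 to 0.0043 when 1 sample was left out, the change of sign coming without *Lkb1* KO replicate 4. The cause was not tested. Over these alternatives the log2 fold change of Sema3g ranged from 1.13 to 1.23, and its adjusted p was at most 2e-05 in the limma fits and 3.09e-04 in the analysis of variance. The deposited values carry no measure of background, so whether genes with values under the highest array median of 6.57 stood above it was not tested. This holds for Sema3e and Sema3a, and for Sema5b in WT (6.13 to 6.32) and in *Lkb1* KO replicates 1, 2, 4 and 5 (6.39 to 6.48). It also holds for 2 of 5 WT values of Sema3g (6.39 and 6.48), against which the fold change of Sema3g was taken.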
